A study of Mus musculus with 4 samples.

Results

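The Socs family and Cish encode feedback inhibitors of cytokine receptors, and their transcripts were followed here across 4 arrays of mouse cells. The members were chosen by name: Socs1, Socs2, Socs3, Socs4, Socs5, Socs6 and Cish, each read by its brightest probe set, averaged over the 4 arrays. All 7 had a probe set annotated to that gene alone, out of 19938 genes measured in this way. Socs1, Socs2 and Socs3 were 2.22-fold to 3.80-fold higher in Thy1+ CD25+ cells obtained with Tcf1 than in progenitors. Socs4, Socs5, Socs6 and Cish did not pass the test. Socs1, Socs2 and Socs3 were also 2.62-fold to 3.22-fold higher than in progenitors in 1 array of Thy1+ CD25+ cells obtained with Notch ligand. Between cells obtained with Tcf1 and with Notch ligand, 0 members passed. A second Socs3 probe set did not follow the first, and 0 members passed against progenitors when all probe sets were tested.

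Tcf1 cells (2 arrays, biological replicates) were wild-type C57BL/6 bone marrow progenitors that carried the Tcf1-VEX retrovirus and grew on OP9, a stromal cell line that lacks Notch ligand. They were sorted on day 10 as live CD45.2+ cells with Thy1 and CD25 on the surface and without Mac1 and Gr1. Control cells (1 array) passed the same sort on the same day, but carried the VEX vector alone and grew on OP9-DL4, the same stroma with the Notch ligand DL4. LMPPs (1 array), lymphoid-primed multipotent progenitors pooled as lineage-negative, Sca1+, Kit+ and Flt3-high cells, stood for the input population and were lysed after 48 hours in the transduction medium. The cytokines in the medium, which act on the members, differed between the groups. LMPPs were lysed out of medium that held IL-3 and IL-6 at 10 ng/ml each, and SCF and Flt3 ligand at 20 ng/ml each. Tcf1 cells and control cells passed through the same cocktail at transduction and were then grown with IL7 (1 ng/ml) and Flt3 ligand (5 ng/ml). Vector and stroma differ together between Tcf1 cells and control cells. Retrovirus, which the LMPP label does not name, time in culture, cytokines, stroma and sort differ together between either of them and LMPPs. These cannot be told apart.

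Cytokine receptors of this class have no enzyme of their own and signal through JAK kinases, which phosphorylate STAT transcription factors. STATs switch on Cish and several Socs genes, and the proteins then bind the receptor or the kinase through an SH2 domain and shut the signal down, a classical feedback loop. A second module, the SOCS box, ties the bound protein to elongins B and C and a cullin, a ubiquitin ligase that marks it for degradation. In developing T cells, IL7 is the main cytokine of this class, and SOCS1 restrains the response to it and to interferons.

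Promoters of Socs1, Socs3 and Cish are shown because Socs1 and Socs3 rose in Tcf1 cells over LMPPs and Cish did not pass, although all 3 are known targets of STAT or interferon signalling. They run from 250 bases before to 50 bases after a transcript start site in RefSeq (GRCm38.p6), which for Socs3 lies inside the annotated gene and not at its outer end, and are written 5′ to 3′ on the strand of the gene. Capitals mark matches to TTCNNNGAA, the core of STAT binding sites, or to a pair of GAAA boxes parted by any 2 bases, the core of sites for interferon regulatory factors, searched on both strands.
Socs1, chr16:10785487-10785786, minus strand: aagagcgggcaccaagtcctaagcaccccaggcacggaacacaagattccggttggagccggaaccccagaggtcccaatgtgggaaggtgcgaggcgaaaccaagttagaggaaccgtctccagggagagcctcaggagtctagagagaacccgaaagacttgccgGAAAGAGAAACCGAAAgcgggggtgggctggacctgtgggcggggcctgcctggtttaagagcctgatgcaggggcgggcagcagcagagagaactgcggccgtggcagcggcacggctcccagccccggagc
Socs3, chr11:117969317-117969616, minus strand: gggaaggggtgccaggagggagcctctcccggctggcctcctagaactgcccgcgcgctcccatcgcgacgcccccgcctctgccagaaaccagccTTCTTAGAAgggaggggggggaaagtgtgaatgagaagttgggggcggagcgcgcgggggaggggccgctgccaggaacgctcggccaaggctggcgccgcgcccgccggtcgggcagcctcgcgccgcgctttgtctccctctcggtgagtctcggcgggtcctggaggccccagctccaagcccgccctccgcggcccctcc
Cish, chr9:107296409-107296708, plus strand: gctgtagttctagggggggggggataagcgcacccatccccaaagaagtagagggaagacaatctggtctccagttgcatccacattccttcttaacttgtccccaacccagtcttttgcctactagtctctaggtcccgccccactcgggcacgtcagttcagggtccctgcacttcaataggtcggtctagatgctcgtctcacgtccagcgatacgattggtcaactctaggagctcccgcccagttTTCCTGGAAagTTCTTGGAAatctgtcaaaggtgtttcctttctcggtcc

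The Socs1 window held 2 overlapping matches to the paired GAAA boxes, at bases -83 to -74 and -77 to -68 from the start site, and 0 to TTCNNNGAA. The Socs3 window held 1 match to TTCNNNGAA, at bases -154 to -146 from that inner start site. The Cish window held 2 matches to TTCNNNGAA, which lay just inside the transcript at bases 1 to 9 and 12 to 20. Of 32851 windows of the same length in the RefSeq table, 8.3% held at least 1 match to TTCNNNGAA and 0.457% at least 2. At least 1 match to the paired boxes was present in 3.44% and at least 2 in 0.225%. The Socs4 window held 0 matches to either. No window was listed for Socs2 and Socs5, and Socs6 was left out of the search. The search thus covered 4 of the 7 members and missed Socs2, which had the largest rise. A match describes letters and does not show binding.

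Values are log2 signals, so a difference of 1 is a 2-fold change, and they are compared within a gene and not between genes. Over the genes, the 5th percentile of the arrays lay between 4.68 and 4.80 and the 95th between 11.04 and 11.20, and the probe set used for each member read above the 25th percentile of 6.12 to 6.21 on every array. Tcf7, the gene that encodes Tcf1, is not analysed here and gives no check of the labels. The sort markers followed them. Thy1 read 12.38 and 12.53 in Tcf1 cells and 12.98 in control cells, against 8.13 in LMPPs. Il2ra, which encodes CD25, read 12.91 and 12.99 in Tcf1 cells and 13.64 in control cells, against 6.88 in LMPPs. The CD3 chain gene Cd3g, a defining T cell marker, read 6.48 and 6.64 in Tcf1 cells, against 13.001 in control cells and 5.62 in LMPPs, so it lay closer to LMPPs than to control cells in the Tcf1 cells. Flt3, the receptor by which LMPPs were gated, read 10.97 and 11.03 in Tcf1 cells and 6.75 in control cells, against 11.91 in LMPPs.

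Tcf1 cells against LMPPs asked how the inhibitors stood in Thy1+ CD25+ cells formed without Notch ligand, relative to the input progenitors. Socs1, Socs2 and Socs3 rose, so 3 of 7 members were higher, 0 were lower and 4 did not pass. Among all 19938 genes, 3.06% passed in either direction, 1.75% higher and 1.31% lower (limma, Benjamini-Hochberg adjusted p under 0.05). Without adjustment, 14.5% had a p under 0.05 in limma. The 610 genes that passed were 349 higher and 261 lower, or 607 higher and 849 lower when each array was centred on its median. The median difference was -0.07 over the members and 0.00 over all genes, since 4 of the members read slightly lower.

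**Figure D1:**
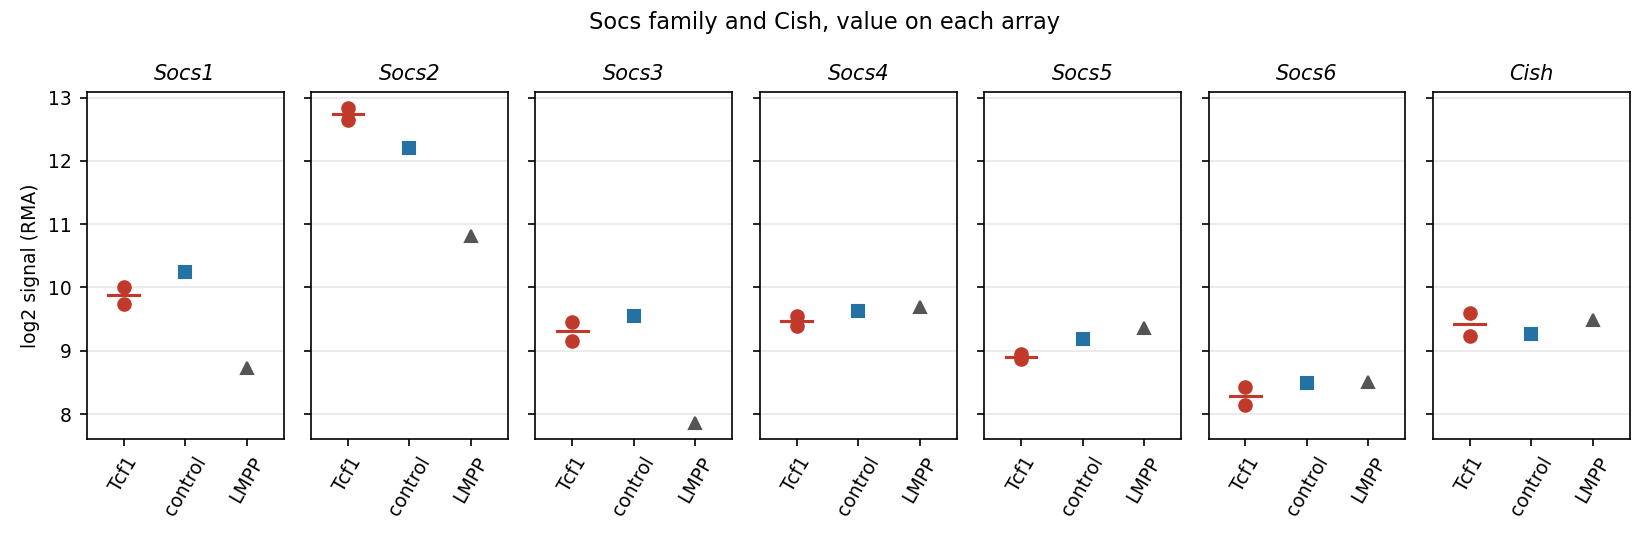
Log2 signal of each member on each array (y axis), with Tcf1 replicates as red circles and their mean as a red line, the control array as a blue square and the LMPP array as a grey triangle. Socs1, Socs2 and Socs3 read lowest in LMPPs, by at least 1 log2 unit from every other array, while the arrays of the other members span 0.30 (Socs4) to 0.49 (Socs5).

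Socs2, best known as the inhibitor of growth hormone signalling, had the largest difference of the members. It read 12.65 and 12.84 in Tcf1 cells, against 10.82 in LMPPs. Both Tcf1 arrays were above the LMPP array, as for 35.8% of all genes, and the gap between them was 0.19. The difference was 1.93 (SE 0.17, 95% interval 1.52 to 2.34, adjusted p = 0.00223, limma), a 3.80-fold higher signal.

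Socs3, the inhibitor of receptors that use the gp130 chain, among them that of IL-6, read 9.15 and 9.46 in Tcf1 cells, against 7.85 in LMPPs. The Tcf1 arrays lay 0.31 apart and both above the LMPP array. The rise was 1.45 (SE 0.19, 95% interval 1.00 to 1.90, adjusted p = 0.0105, limma), or 2.73-fold. It held for the probe set used. A second probe set annotated to Socs3 through another sequence record read 7.46 and 7.82 in Tcf1 cells, against 7.48 in LMPPs, a difference of 0.16. With both averaged, the difference was 0.81 and did not pass (adjusted p = 0.0772, limma).

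Socs1, an inhibitor of JAK kinases that restrains interferon and IL7 signalling, read 9.74 and 10.01 in Tcf1 cells, against 8.72 in LMPPs. Both Tcf1 arrays were higher, and they differed from each other by 0.27. The rise was 1.15 (SE 0.18, 95% interval 0.71 to 1.59, adjusted p = 0.0234, limma), or 2.22-fold. Socs1, Socs2 and Socs3 were each at least 2-fold higher with either Tcf1 array taken alone. When the test ran over all 35399 probe sets, in place of 1 for each named gene, 0 probe sets of any gene passed, so 0 members passed (limma). The adjusted p in limma was then 0.336 for Socs1, 0.187 for Socs2 and 0.284 for Socs3. At an unadjusted p under 0.05, 4 members and 3317 probe sets then differed in limma.

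Cish, the founding member and a STAT5 target, binds phosphorylated receptor tails. It read 9.24 and 9.60 in Tcf1 cells, against 9.49 in LMPPs. The LMPP array lay between the Tcf1 arrays, and the difference was -0.07 (95% interval -0.55 to 0.41, adjusted p = 0.959, limma). Its sign turned to 0.05 after renewed quantile normalization. The interval leaves out the rises of Socs2, Socs3 and Socs1, all above 1 on the log2 scale, but not smaller shifts.

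Socs4 and Socs5, close relatives with long amino-terminal regions that act on the epidermal growth factor receptor, both read lower in both Tcf1 arrays without passing. Socs5 read 8.86 and 8.95 in Tcf1 cells, against 9.36 in LMPPs, a difference of -0.45 (95% interval -0.83 to -0.06, unadjusted p = 0.0292, adjusted p = 0.261, limma). Socs4 read 9.39 and 9.54 in Tcf1 cells, against 9.69 in LMPPs, a difference of -0.22 (95% interval -0.62 to 0.18). Socs6, whose protein binds the SCF receptor Kit, read 8.15 and 8.43 in Tcf1 cells, against 8.50 in LMPPs, a difference of -0.21 (95% interval -0.65 to 0.23). Over all genes, both Tcf1 arrays lay below the LMPP array for 36.8%, so this direction is common. The adjusted p was 0.702 for Socs4 and 0.761 for Socs6 in limma.

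**Figure D2:**
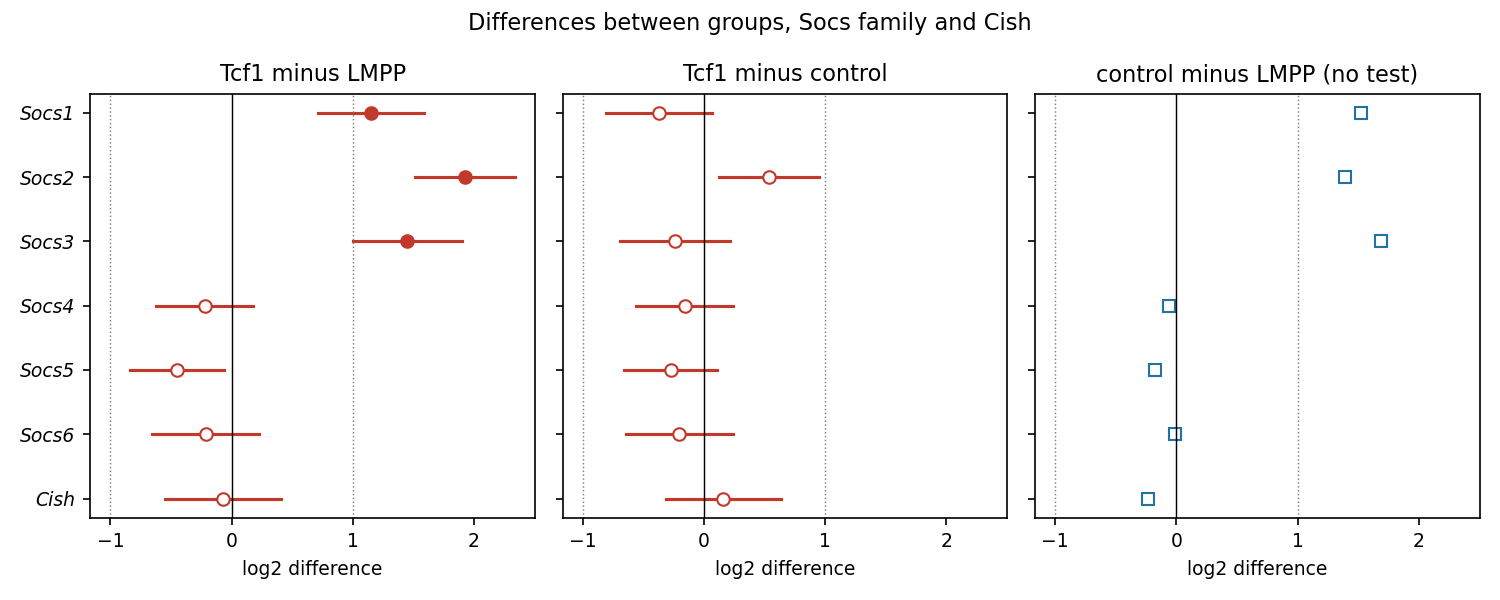
Log2 differences (x axis) of each member for Tcf1 cells minus LMPPs, Tcf1 cells minus control cells and control cells minus LMPPs. Bars are 95% intervals of the limma fit, filled circles passed at an adjusted p under 0.05, open symbols did not pass or, in the right panel, had no test, and dotted lines mark a 2-fold change. Socs1, Socs2 and Socs3 are 1.15 to 1.93 above LMPPs in Tcf1 cells and 1.39 to 1.69 above them in control cells.

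Tcf1 cells against control cells asked whether the inhibitors stood differently in Thy1+ CD25+ cells formed with Tcf1 and with Notch ligand. Of the 7 members, 0 passed in limma, and Socs2 alone had an unadjusted p under 0.05. Among all genes, 4.38% passed (1.9% higher and 2.49% lower). Without adjustment, 14.1% had a p under 0.05 in limma. The interval bound farthest from 0 among the members was 0.95 (Socs2), under the 2-fold line. The comparison with LMPPs shares the Tcf1 arrays with this one, so the results are not independent.

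Socs2 read 12.65 and 12.84 in Tcf1 cells, against 12.21 in control cells. Both Tcf1 arrays were higher, as for 38.6% of all genes, with a difference of 0.54 (SE 0.17, 95% interval 0.13 to 0.95, adjusted p = 0.189, limma), or 1.45-fold. With a prior variance that follows mean expression, adjusted p = 0.00459 (limma), so this call depends on the form of the test. The second Socs2 probe set gave a difference of 0.31.

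Socs1 and Socs3 read lower in both Tcf1 arrays than in the control array without passing. The control array read 10.24 for Socs1, and the difference from it was -0.37 (95% interval -0.81 to 0.07, adjusted p = 0.476, limma). For Socs3 it read 9.54, and the difference was -0.24 (95% interval -0.69 to 0.22, adjusted p = 0.749, limma), or -0.39 with Tcf1 replicate 1 alone and -0.08 with replicate 2 alone. The order of levels was thus Tcf1 cells, control cells, LMPPs for Socs2 and control cells, Tcf1 cells, LMPPs for Socs1 and Socs3, with the first 2 groups of each order not separated by the test.

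The control array read 9.62 for Socs4, 9.18 for Socs5 and 8.49 for Socs6, and both Tcf1 arrays lay below it for each, with mean differences of -0.16, -0.28 and -0.20 in that order and adjusted p-values of 0.842, 0.589 and 0.796 (limma). Cish read 9.26 in control cells, between its values of 9.24 and 9.60 in Tcf1 cells, with a difference of 0.16 (95% interval -0.32 to 0.64). Without Tcf1 replicate 2 the Cish difference was -0.02. Both Tcf1 arrays lay below the control array for 34.2% of all genes.

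Control cells against LMPPs, 1 array against 1, has no replicate and no test. Socs3 was 1.69 higher in control cells (9.54, against 7.85 in LMPPs), Socs1 1.52 higher (10.24, against 8.72 in LMPPs) and Socs2 1.39 higher (12.21, against 10.82 in LMPPs). Thus 3 of 7 members were at least 2-fold higher and 0 at least 2-fold lower, where 3.17% of all genes were at least 2-fold higher, 2.36% at least 2-fold lower and 5.53% one or the other. With averaged probe sets the count was 2, since Socs3 then differed by 0.89, and its second probe set alone differed by 0.10. Socs4 (-0.06), Socs5 (-0.17), Socs6 (-0.01) and Cish (-0.23) differed by 0.23 at most. Socs1, Socs2 and Socs3 therefore read higher than in the LMPP array in all 3 arrays of Thy1+ CD25+ cells. The smallest rise was 1.01 on the log2 scale (Socs1 in Tcf1 replicate 1). The single LMPP array is common to both comparisons, so its own error enters both.

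**Figure D3:**
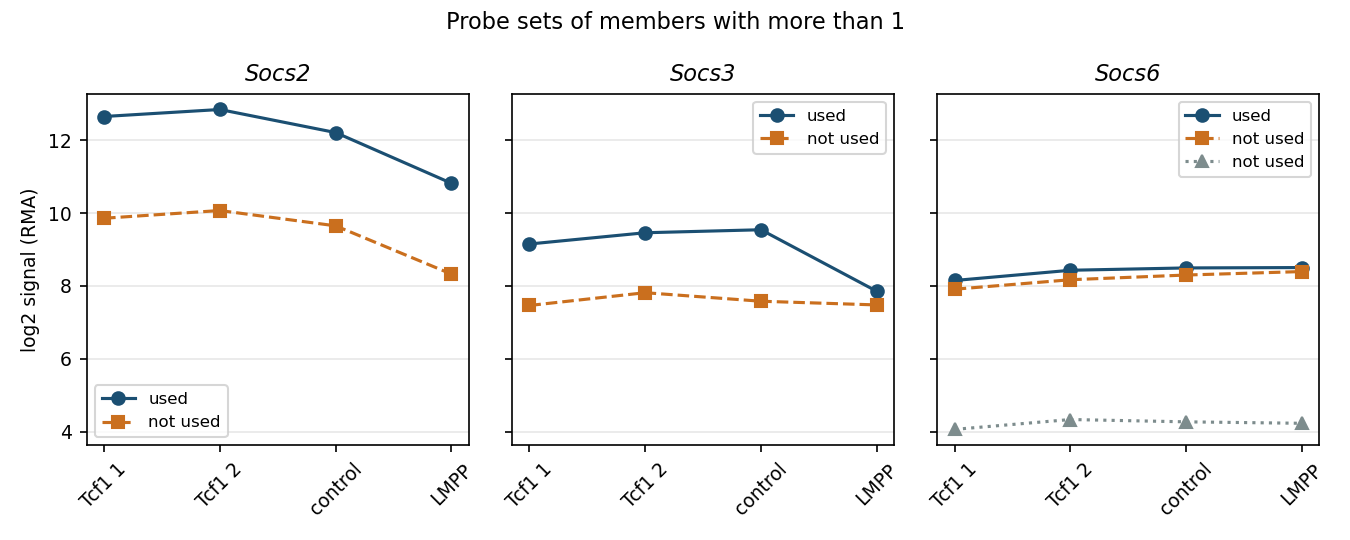
Log2 signal (y axis) on each array for the probe sets of Socs2, Socs3 and Socs6, the members with more than 1, with the probe set used as a solid line and the others as broken lines. Both Socs2 probe sets read lowest in LMPPs, while the Socs3 probe set that was not used stays between 7.46 and 7.82.

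Probe sets of 3 members could be set against each other. The second Socs2 probe set read 9.86 and 10.07 in Tcf1 cells and 9.65 in control cells, against 8.33 in LMPPs. Its difference between Tcf1 cells and LMPPs was 1.64, beside 1.93 for the one used. The second Socs6 probe set read 7.91 and 8.17 in Tcf1 cells and 8.30 in control cells, against 8.40 in LMPPs, a difference from LMPPs of -0.35, beside -0.21 for the one used. The third Socs6 probe set, between 4.07 and 4.34 on every array, lay under the 5th percentile of the genes. Socs3 was thus the member whose annotated probe sets disagreed. Genome positions of the probe sets were not checked, so whether each one reads the transcript of its member was not tested.

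Upstream of the members, the cytokine receptor genes moved in both directions. The 33 measured receptor genes also held Kit and Flt3, which, unlike the class described above, carry a kinase of their own. A further 4 listed genes, Il2rg among them, were not measured. Of the 33, 7 rose, 2 fell and 24 did not pass between Tcf1 cells and LMPPs, with a median of 0.23 beside 0.00 over all genes. Il7r, the receptor chain for IL7, read 12.11 and 12.33 in Tcf1 cells, against 9.27 in LMPPs, a rise of 2.95 (adjusted p = 0.000648, limma). It read 11.51 in control cells. Il2ra rose by 6.07, a gene of the sort gate, and Il2rb, the chain shared by the IL2 and IL15 receptors, rose by 1.77. Il4ra (1.03), Ifngr1 (0.88), Il12rb2 (1.30) and Kit (1.54) also rose, while Il21r (-1.32) and Flt3 (-0.91) fell.

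Some receptor chains for the cytokines of the LMPP medium were higher in Tcf1 cells than in control cells. Csf2rb, the common beta chain of the IL3 and GM-CSF receptors, read 11.03 and 11.25 in Tcf1 cells, against 8.18 in control cells (difference 2.96, adjusted p = 0.000438, limma) and 10.75 in LMPPs. Il6ra, the IL6 receptor alpha chain, read 9.45 and 9.44 in Tcf1 cells, against 7.83 in control cells (difference 1.61, adjusted p = 0.00296, limma) and 9.60 in LMPPs. Of the 33 receptor genes, 7 were higher and 1 lower in Tcf1 cells than in control cells, with Flt3 at 4.24, Csf2rb2 at 3.04, Il13ra1 at 1.52, Ifngr2 at 0.99 and Il10rb at 0.86 among the higher and Il12rb1 at -1.36 the lower. Il6st, which encodes gp130 itself, differed by -0.22 from LMPPs and by 0.52 from control cells without passing.

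Of 9 measured JAK and STAT genes, Stat4 rose between Tcf1 cells and LMPPs and 8 did not pass. Stat4, which carries the IL12 signal, read 10.72 and 11.09 in Tcf1 cells, against 9.85 in LMPPs (difference 1.06, adjusted p = 0.0451, limma). Stat5a (0.37) and Stat5b (0.37), the STATs that IL7 activates, Stat3 (0.35), Stat2 (0.70) and Stat6 (0.15) did not pass. Neither did the kinase genes Jak1 (-0.06), Jak2 (0.26) and Tyk2 (0.14). Between Tcf1 cells and control cells 0 of the 9 passed, and at an unadjusted p under 0.05 there were 2, Jak1 (-0.59, unadjusted p = 0.0117, limma) and Stat5b (-0.42, unadjusted p = 0.0423, limma).

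Partners of the SOCS box stayed within 0.43 of LMPPs. Elob (-0.07), Eloc (-0.24), Cul5 (-0.42), Cul2 (-0.41), Rnf7 (-0.18) and Rbx1 (-0.43) did not pass against LMPPs in limma. Cul5, Cul2 and Rbx1 had an unadjusted p under 0.05 in limma, as did 14.5% of all genes. Against control cells 0 of these 6 passed, and 0 had an unadjusted p under 0.05 in limma. Of 18 other inhibitors of cytokine signalling, Usp18 (2.34), which limits interferon receptor signalling, and Ptpn1 (1.63), a tyrosine phosphatase that acts on JAK2, rose over LMPPs and 16 did not pass. Against control cells Usp18 was higher by 1.58 and Cbl, a ubiquitin ligase, lower by 0.95. Socs7, a relative outside the 7 members, differed by -0.34 from LMPPs and by -0.59 from control cells and did not pass.

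**Figure D4:**
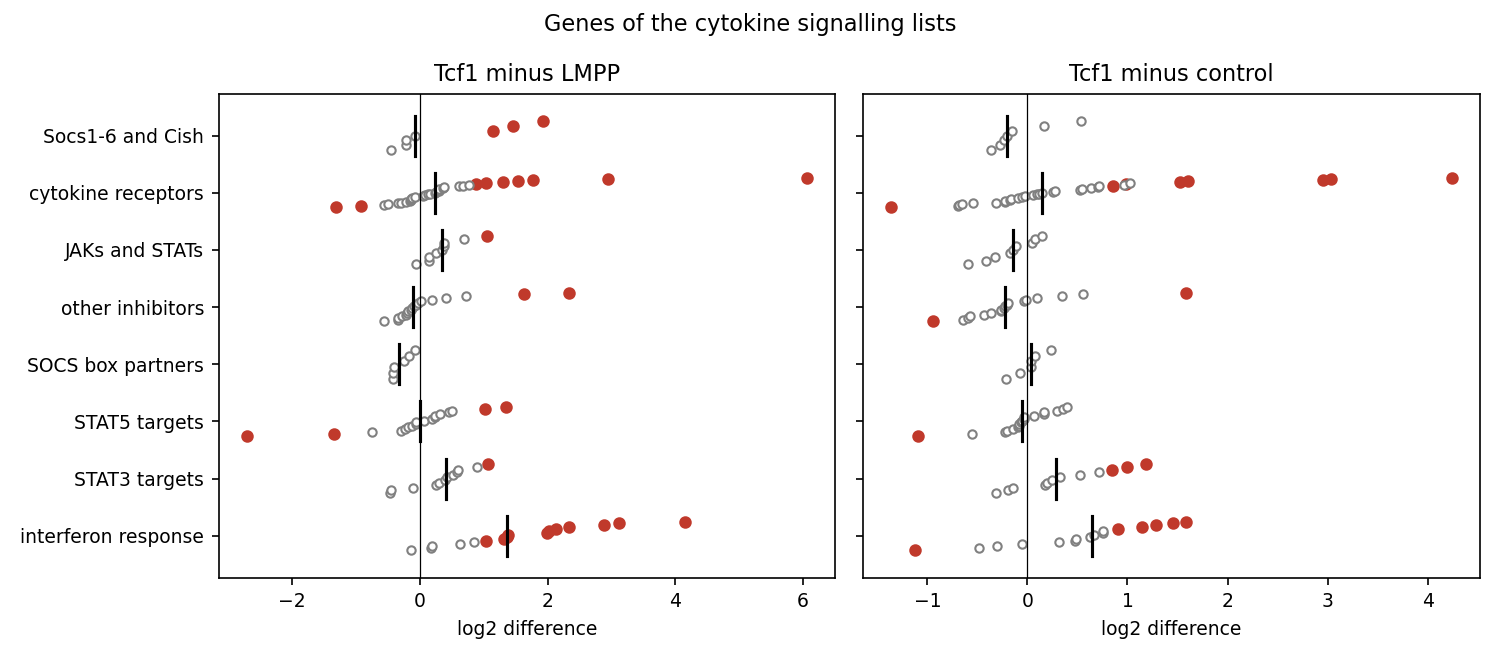
Log2 differences (x axis) of every measured gene of 8 lists, for Tcf1 cells minus LMPPs and Tcf1 cells minus control cells. Filled red points passed limma at an adjusted p under 0.05, open points did not, and black bars are list medians. Against LMPPs, the interferon list has its median at 1.36, while the median of the Socs family and Cish is -0.07 with 3 members to the right.

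Downstream, 18 genes described as STAT5 targets did not move one way: 2 rose, 2 fell and 14 did not pass against LMPPs, with a median of 0.00. Osm, the cytokine oncostatin M, rose by 1.35 and read 9.47 and 9.52 in Tcf1 cells, against 8.14 in LMPPs. Lif, another cytokine that signals through gp130, rose by 1.02 against LMPPs and was lower by 1.09 than in control cells (adjusted p = 0.0199, limma). Ccnd1, cyclin D1, fell by 2.71 and Gfi1b, a transcriptional repressor, fell by 1.35. Pim1 (0.51), Bcl2 (0.32) and Myc (-0.06) did not pass. Of 12 STAT3 targets, Hif1a (1.07) rose over LMPPs, and Bcl3 (1.19), Hif1a (0.997) and Cebpd (0.85) were higher than in control cells.

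Interferon response genes, like Socs1, rose over LMPPs. Of 16 measured, 11 rose and 5 did not pass between Tcf1 cells and LMPPs, with a median of 1.36. The largest rises were those of Rtp4 (4.15), Oasl2 (3.12) and Ddx58 (2.88), and Usp18 belongs to this list too. The mean log2 level of the list was 8.93 and 8.88 in Tcf1 cells and 8.37 in control cells, against 7.32 in LMPPs. Irf1, a transcription factor known to switch on Socs1, read 8.90 and 9.37 in Tcf1 cells, against 10.25 in control cells (difference -1.12, adjusted p = 0.0425, limma) and 9.27 in LMPPs. Against control cells, 5 of the 16 were higher in Tcf1 cells and 1 lower, with a median of 0.64, where Socs1 read -0.37. The part of the interferon response in the Socs1 value was not tested.

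Markers of other cells also moved. Of 14 measured macrophage markers, 6 rose over LMPPs and 9 were higher than in control cells, and their mean log2 level was 8.64 and 8.90 in Tcf1 cells, against 6.85 in control cells and 7.81 in LMPPs. Adgre1 read 11.10 and 11.43 in Tcf1 cells, against 6.51 in control cells and 6.89 in LMPPs, while Cd163 lay under the 25th percentile on all 4 arrays. The sort had removed cells with Mac1 or Gr1, and Itgam, the gene for Mac1, read 7.44 and 7.70 in Tcf1 cells, against 7.03 in control cells and 8.25 in LMPPs, and passed in neither comparison. Cd68 (0.12) and Csf1r (0.15) did not pass against LMPPs. In control cells 7 of the 14 were at least 2-fold lower than in LMPPs and 0 at least 2-fold higher, from 1 array against 1 without a test. Of 11 T lineage markers, 6 rose over LMPPs in Tcf1 cells and 10 were at least 2-fold higher in control cells than in LMPPs. Thy1 and Il2ra, the genes of the sort gate, count in both, and their rise was set by the sort. The others that rose in Tcf1 cells were Gata3 (2.54), Bcl11b (2.08), Lat (1.28) and Cd3g (0.94). Against control cells, 7 of the 11 were lower in Tcf1 cells and 0 higher, with a median of -1.83. Among the lower were Rag1 (-3.23), Cd3e (-2.98), Cd3d (-2.86) and Themis (-2.53). Of 8 measured progenitor markers, 1 rose and 4 fell against LMPPs, while 5 were higher than in control cells and 0 lower. Cd34 read 12.76 and 12.86 in Tcf1 cells, against 8.91 in control cells and 12.67 in LMPPs. Of 10 granulocyte markers 6 fell and 1 rose over LMPPs. In the same 10, 4 were higher than in control cells and 0 lower: Mmp8 (4.99), Prtn3 (2.82), Mpo (2.12) and Elane (1.66). Of 8 stromal markers Bgn rose over LMPPs (2.25), while Bgn was higher (1.52) and Pdgfrb lower (-1.63) than in control cells. Of 8 dendritic cell markers 0 passed against LMPPs in limma, and 3 were higher than in control cells: Cd74 (4.53), H2-Aa (4.06) and H2-Ab1 (3.54). The Tcf1 arrays lay far apart on these, with Cd74 at 10.18 and 11.32 in Tcf1 cells, against 6.22 in control cells and 11.21 in LMPPs. Of 9 NK markers, Gzmb rose (2.18) and Eomes fell (-1.58) against LMPPs, and Gzma (-3.91) and Nkg7 (-1.45) were lower than in control cells. Of 7 mast cell and basophil markers, Cpa3 rose (2.36) and Mcpt8 fell (-2.31) against LMPPs, and Mcpt8 was lower than in control cells (-1.83). Of 7 B lineage markers Cd79b was lower in both comparisons (-2.39 from LMPPs and -1.53 from control cells). In bulk RNA, fewer cells of a type and less RNA per cell cannot be told apart, and the part of these cells in the Tcf1 values was not tested.

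**Figure D5:**
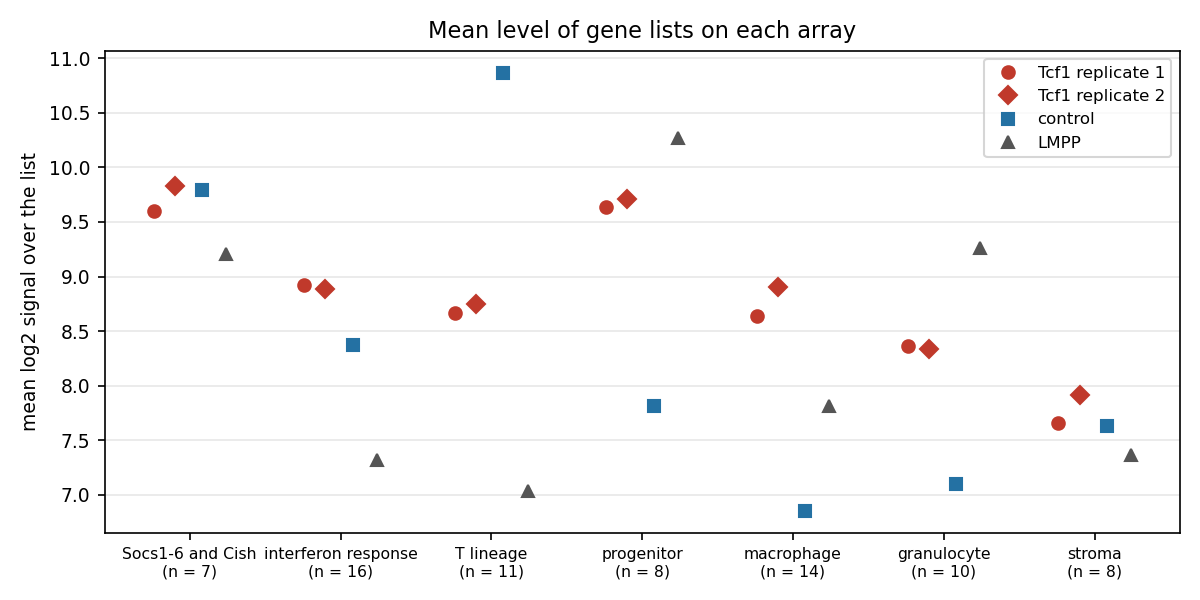
Mean log2 signal (y axis) over each list on each array, with Tcf1 replicates in red, the control array in blue and the LMPP array in grey, and n the genes measured in each list. The macrophage mean is highest in Tcf1 cells and lowest in control cells. The mean of the Socs family and Cish is lowest in LMPPs.

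Genes with the pattern most like each of the moving members were sought among 1655 named genes that span at least 1 log2 unit over the 4 arrays, by the root mean square distance of values centred on their own mean. For Socs1 these were Rgcc (distance 0.013), a regulator of the cell cycle, Fam102a (0.036) and Neb (0.045). Rgcc read 9.12 and 9.36 in Tcf1 cells and 9.60 in control cells, against 8.08 in LMPPs. For Socs2 they were Lilr4b (0.058), a receptor of myeloid cells, Sipa1l1 (0.094) and Tcn2 (0.105), a carrier of vitamin B12. Lilr4b read 10.999 and 11.30 in Tcf1 cells and 10.72 in control cells, against 9.24 in LMPPs. For Socs3 they were the small nucleolar RNA Snora33 (0.061), Ikzf2 (0.071), the Ikaros family transcription factor Helios, and Ppt1 (0.076), a lysosomal thioesterase. Ikzf2 read 8.99 and 9.24 in Tcf1 cells and 9.47 in control cells, against 7.82 in LMPPs. Such likeness over 4 arrays is a description.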

How the data were processed

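Transcript levels were measured on Affymetrix whole-transcript arrays in 2 Tcf1, 1 control and 1 LMPP sample. The log2 signals per probe set, deposited by the authors, were made with RMA and Partek 6.5, per the submitters' processing notes; parameters and genome build are not given in the sources used here, and the log base was taken from RMA and the range of 3.44 to 14.45. Of 35399 probe sets, 21789 had a single gene symbol, 1621 several and 11989 none. The probe set with the highest mean was kept for each of 19938 genes, with no filter on dim genes.

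Group means were fitted over all genes with limma 3.58.1 in R 4.3.3 (empirical Bayes, Benjamini-Hochberg, adjusted p under 0.05). The only residual degree of freedom came from the Tcf1 pair, with 5.78 added by the prior, so the single arrays were taken to vary as that pair did. Control cells against LMPPs had no test. On simulated data, 37.5% of 2-fold and 99% of 4-fold changes against LMPPs were recovered, with 7.97% of calls false, and 48.2% and 98.9% against control cells, with 9.74% false. Both shares of false calls lay above the level of 0.05 set for the adjusted p. The number of arrays limits the precision.

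Members and lists were chosen with earlier results of these data known. Text names all members, the measured JAK, STAT and SOCS box genes, some of the other list genes past the test or among the 4 largest differences, and the 3 genes most like each member that spans at least 1 log2 unit; further genes were chosen after their values were seen. Alternatives were renewed quantile normalization, median centring, a filter at the 25th percentile, averaged probe sets, all probe sets, a prior that follows mean expression, and each Tcf1 array alone.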

Additional observations from a re-analysis of the deposited data

How the results depend on the processing

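The members' counts past the test against LMPPs were 3 under renewed quantile normalization, median centring, the filter at the 25th percentile and a prior that follows mean expression. The count was 2 with averaged probe sets, where Socs3 did not pass, and 0 over all 35399 probe sets. There 0 probe sets passed in either comparison in limma, with 3317 against LMPPs and 3702 against control cells at an unadjusted p under 0.05. The SD between the Tcf1 replicates was 0.55 over probe sets without a symbol and 0.24 over genes. Against control cells 0 members passed, or 1, Socs2, with the prior that follows mean expression. The count of all genes against LMPPs moved to 1456 with median centring, 1196 with the filter and 936 with the trended prior, and against control cells to 1646 with median centring and 1437 with the filter; the cause was not tested. The Cish difference from LMPPs turned to 0.049 after quantile normalization and ran from -0.25 without Tcf1 replicate 2 to 0.11 without replicate 1. That from control cells ran from -0.021 without replicate 2 to 0.34 without replicate 1. Leaving out 1 Tcf1 array leaves no residual degree of freedom and gives values only: 1.01 to 1.29 for Socs1, 1.83 to 2.02 for Socs2 and 1.30 to 1.61 for Socs3 against LMPPs, and -0.51 to -0.23 for Socs1, 0.44 to 0.63 for Socs2 and -0.39 to -0.08 for Socs3 against control cells. For Socs6 they were -0.35 to -0.07 against LMPPs and -0.34 to -0.06 against control cells. Socs4 and Socs5 kept their sign. No paired analysis was possible because only the Tcf1 samples carry replicate numbers.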
